A study of Drosophila melanogaster with 3 samples.

Results

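Of the 7176 peaks in the authors' IDR list, 1381 (19.2%) had a summit in an intron at middle distance from a transcription start. IDR stands for irreproducible discovery rate, and the list is the authors' set of reproducible peaks. These middle-distance intronic summits were chosen by position alone. The summit had to lie inside a protein-coding gene and in no coding sequence or untranslated region of any protein-coding transcript, with the nearest protein-coding transcription start site (TSS) 2001 to 10000 bp away. Of the 7176 summits, 4408 were inside a protein-coding gene, 3680 of those were in no exon of a protein-coding transcript, and 1381 of those met the distance limits. The same rule, applied to the 7176 strongest peaks of each replicate, found 1361 summits in replicate 3, 1332 in replicate 4 and 1305 in replicate 5.

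The peaks came from chromatin immunoprecipitation with sequencing (ChIP-seq) on whole Drosophila melanogaster embryos of 4 to 16 hours. The embryos were from 1 transgenic line carrying unpg (unplugged) with GFP fused to its C terminus, and the 3 biological replicates, numbered 3, 4 and 5, form 1 group. The sample descriptions name an anti-GFP antibody, whereas the antibody field names unpg. The replicates shared a control library, untagged embryos were not analysed here, and dependence of the peaks on the tagged protein was not tested. Chromatin was sonicated to fragments of 200 to 800 bp, so a summit places binding only roughly. In whole embryos, a peak found in few cells and a weak peak found in many cannot be told apart.

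Unplugged, the product of unpg, is a homeodomain transcription factor that acts in the cerebral branch of the tracheal system and in the embryonic brain. Homeodomains commonly recognise short AT-rich DNA with a TAAT core, and the palindrome TAATTA is a widely shared form of it. Introns of long developmental genes in Drosophila often hold enhancers, the stretches of DNA where transcription factors act on a promoter at a distance. Many regulators are found at such DNA, so a peak in an intron does not by itself name the gene that is regulated.

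Of the 12 strongest members with TAATTA within 50 bp of the summit, 10 are shown, because they pair high rank with the word closest to what a homeodomain is known to bind. Each run is 30 bases of the plus strand of the Release 6 reference genome (dm6), 5′ to 3′, placed around the copy nearest to the summit, and capitals mark TAATTA.
trx (chr3R:14283901-14283930): tgaattaatacaTAATTAtttgatcaataa
Btk (chr2L:8292580-8292609): aaaaaaactgcaTAATTAatatcttgactt
Hr4 (chrX:1947700-1947729): ttccattagtttTAATTAtaaacaagtgca
Pak3 (chr3R:16449374-16449403): gaaagtatctttTAATTAtactctcagttg
Lrch (chr2L:17379097-17379126): atgggttttcggTAATTAtaaaatattccc
simj (chr3L:10682955-10682984): tattattaaataTAATTAttaggactataa
eff (chr3R:14738647-14738676): ttcttattcgaaTAATTAatattgtgaact
beat-Ib (chr2L:15912162-15912191): ttaccgcattttTAATTAtaattgtattac
CG10283 (chr2L:18477623-18477652): gtaaatatgttaTAATTAttattgtaataa
comm3 (chr3L:15625839-15625868): gcgttaaaattaTAATTAcggctaataatg
Over the 30 bases, which include the TAATTA itself, GC content was 10 to 30% in all 10.

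A second set shows the GATA factor word AGATAAG, or CTTATCT where it lies on the other strand, in 6 of the strongest members that hold it. GATA factors are zinc finger regulators of blood, gut and amnioserosa. This set was chosen after the values were seen, and capitals mark the word.
Tis11 (chrX:12665626-12665655): caataatcatgtCTTATCTattattaagtt
Myo10A (chrX:10936764-10936793): atacattgtgacAGATAAGaagagatagtt
Nuak (chr3R:10268572-10268601): ttcaaaaacaaaCTTATCTcagagcttgaa
Pgant5 (chr2L:5087315-5087344): taacaaacaagaAGATAAGattgcatacat
Socs36E (chr2L:18145484-18145513): aaaaatggaataAGATAAGcatggctttaa
E23 (chr2L:3338985-3339014): atatctttatttCTTATCTagctgtcttga
The Tis11 summit shown here, at IDR rank 650, is a different member from the stronger Tis11 summit described further on.

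The last set shows AATATT, the 6-letter word with the highest ratio of summit to flank windows, also chosen after the values were seen. Capitals mark AATATT in 4 of the strongest members that hold it.
Tlk (chrX:3742170-3742199): cgaaattggaaaAATATTaaagacactttt
tara (chr3R:16236913-16236942): tgaaaatagtttAATATTcaattactatat
CHES-1-like (chrX:7707008-7707037): cattgaacatttAATATTtaagctacaata
CG13894 (chr3L:696943-696972): gttggtctaataAATATTgagtagagtatg
In 3 of these 4, the run, AATATT included, holds no more than 23.3% GC.

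Summits were placed in introns most densely next to a TSS, and the middle-distance class stood between its neighbours. Eligible DNA is the intronic DNA that meets the same position rule, and 22.8 Mb of it lay 2001 to 10000 bp from a TSS. The density there was 60.6 summits per Mb in the IDR list, and 59.7, 58.4 and 57.2 per Mb in replicates 3, 4 and 5 (mean 58.5 ± 1.23, SD, n = 3). Intronic DNA within 2000 bp of a TSS held 124 summits per Mb in the IDR list and 127 ± 2.45 (SD, n = 3) in the replicates. Beyond 10000 bp the density was 28.3 per Mb in the IDR list and 26.2 ± 1.71 (SD, n = 3) in the replicates. The 3 classes did not overlap in any replicate, and an exact sign permutation test over the 3 replicates gave a two-sided p of 0.25 against each neighbour, the smallest that 3 replicates allow.

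The fall was steep near the TSS and shallow across the members' own range. In the IDR list the density was 184.6 per Mb in the first 500 bp and 92.4 per Mb from 1001 to 2000 bp. Within the range of the members it went from 72.9 per Mb at 2001 to 3000 bp through 59.3 at 4001 to 6000 bp to 49.2 at 8001 to 10000 bp. Past the far limit it was 47.2 per Mb up to 15000 bp and 16.7 per Mb over 20000 bp, so neither limit of the class falls at a break. Against the close class with the first 500 bp left out, the ratio of densities was 0.594, compared with 0.489 when they were kept in.

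**Figure D1:**
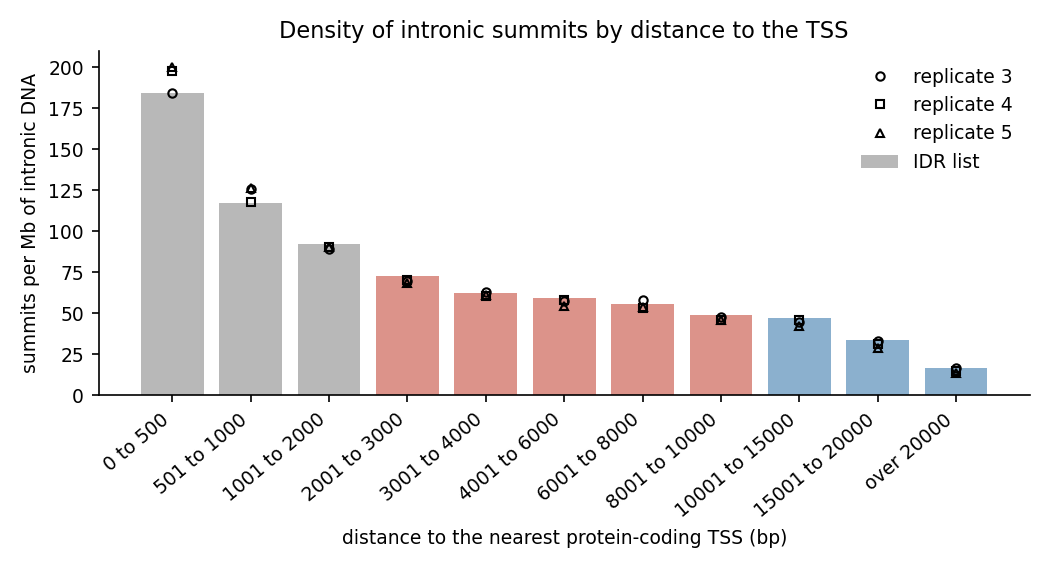
Summits per Mb of intronic DNA (y axis) by distance to the nearest protein-coding TSS in bp (x axis). Bars are the IDR list (grey, within 2000 bp, red, 2001 to 10000 bp, blue, beyond 10000 bp) and open symbols are the 7176 strongest peaks of each replicate. The bars fall from 184.6 per Mb next to the TSS to 72.9 at the near end of the red class, 49.2 at its far end and 16.7 beyond 20000 bp.

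The summits just inside and just outside the limits differed widely in strength. The nearest members, in Hnf4 at 2007 bp and in CG12576 at 2008 bp, ranked 5063 and 7007 in the IDR list. Intronic summits in Dif and CHES-1-like, both at 2000 bp and thus outside, ranked 149 and 1682. At the far end the members in nmo at 10000 bp and Hr4 at 9967 bp ranked 2322 and 203, whereas summits in hbs at 10018 bp and MESR3 at 10030 bp ranked 5387 and 1459.

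The members were weaker on average than intronic summits close to a TSS. Rank 1 is the peak of highest signal, the authors' own score with no stated scale, and it is used here only within a list. The median member ranked 3831 of 7176 (range 36 to 7163), which is 53.4% of the way down the list, against 43.6% for the close class and 59.2% for the class beyond 10000 bp. In the replicates the median position was 53.1, 50.5 and 52.0% for the members, and 44.5% ± 0.493 (SD, n = 3) for the close class. It lay lower in the list than that of the close class and higher than that of the far class in each of the 3 replicates (exact sign permutation, two-sided p = 0.25 for each, the smallest possible). The members make up 19.2% of the IDR list. Its strongest 25% held 297 members and its weakest 25% held 365. Of the 100 strongest peaks 5 were members, and of the 1000 strongest 142 were. Within the members, rank had almost no relation to distance from the TSS (Spearman's rho 0.0153 over 1381 summits, which are not independent replicates).

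**Figure D2:**
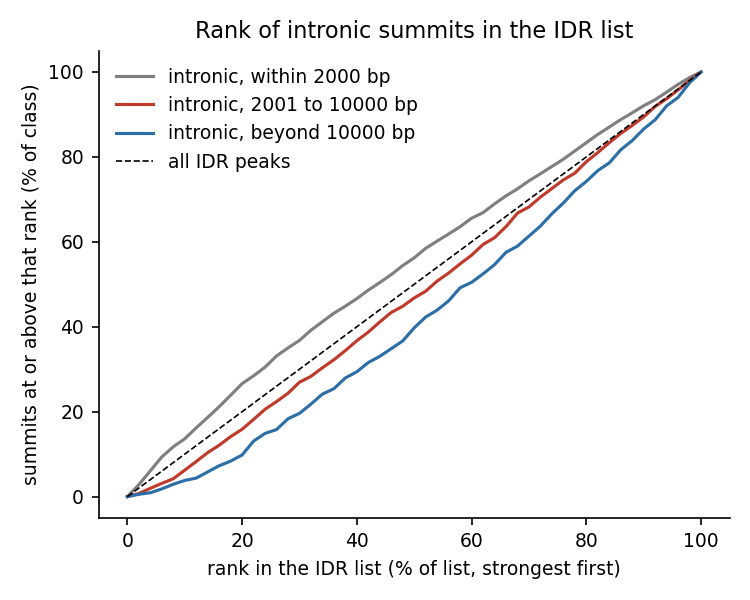
Share of each class of intronic summits (y axis, % of the class) at or above a given position in the IDR list (x axis, % of the list, strongest first). The line of the 2001 to 10000 bp class runs between the close and the far class and just below the dashed line of all IDR peaks, with its median at 53.4% of the list against 43.6 and 59.2%.

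Members were found again in the replicates about as often as other IDR peaks. Of the 1381, 955 (69.2%, 95% Wilson interval 66.7 to 71.5, counting error only) overlapped one of the 7176 strongest peaks of all 3 replicates, against 70.4% of all IDR peaks. The share was 88.1% in replicate 3, 86.4% in replicate 4 and 82.8% in replicate 5. It followed strength closely: with the members in 4 parts of equal size by rank, 100% of the strongest part was found in all 3 replicates, followed by 98.0, 68.4 and 10.1%. A further 275 members were found in exactly 2 replicates, 138 in 1 and 13 in none. Because the IDR list derives from the replicates, these shares are not an independent check. Over the members, Spearman's rho of the signal was 0.825 for replicates 3 and 4, 0.802 for replicates 3 and 5, and 0.832 for replicates 4 and 5, as a description of peaks that share their libraries. A small number of members are not separate sites at this resolution: 27 had a peak that shares bases with another IDR peak.

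The strongest member lay in Tlk (FBgn0283657), which encodes Tousled-like kinase, known from chromatin assembly during replication. Its peak, at chrX:3741995-3742414, had its summit in the second of 8 introns, 2327 bp downstream of a Tlk TSS. It ranked 36 in the IDR list and 32, 36 and 54 in replicates 3, 4 and 5. Gug encodes the Atrophin corepressor, and its member at chr3L:8458126-8458542 (second intron, 7682 bp from a TSS) ranked 47 in the IDR list and 43, 48 and 55 in the replicates. Both peaks were thus among the 55 strongest of each list.

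The next members were at CG12769 and at trx. The peak in the first intron of CG12769 (chr2R:8060821-8061210) ranked 53 in the IDR list and 55, 55 and 48 in the replicates. trx encodes Trithorax, a histone H3 lysine methyltransferase that maintains active homeotic gene states. Its peak in the first intron (chr3R:14283656-14284067, 3030 bp downstream of a TSS) ranked 73 in the IDR list and 61, 79 and 85 in the replicates, and carries the TAATTA printed first above. The trx gene held 5 members in all, the other 4 at IDR ranks 5255, 5270, 5986 and 7058, so its strong summit stands alone among weak ones.

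A member at chr2R:10219885-10220275 lies in 3 overlapping genes, CG46321, CG12912 and Hr3, of which Hr3 encodes a nuclear receptor of the ecdysone cascade. It ranked 76 in the IDR list and 68, 76 and 88 in the replicates, and its nearest TSS, 7879 bp away, belongs to Hr3. The tara gene encodes a nuclear protein with trithorax group activity, and its member at chr3R:16236744-16237167 ranked 106, and 122, 101 and 105 in the replicates. Btk encodes a Tec family tyrosine kinase, and its member at chr2L:8292440-8292801 ranked 121, and 141, 90 and 137 in the replicates.

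Kdm2 encodes a histone lysine demethylase, and its member at chr3R:9057301-9057791 varied most among the 12 strongest, at ranks 191, 131 and 66 in replicates 3, 4 and 5. CHES-1-like encodes a forkhead transcription factor, and its member at chrX:7706786-7707212 ranked 110, 115 and 139. The stronger Tis11 member (chrX:12666424-12666819), in a gene for an RNA-binding zinc finger protein, ranked 165, 134 and 152. Each of these 3 summits was within the 200 strongest peaks of every replicate.

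Hr4, a further ecdysone-cascade nuclear receptor gene, held 5 members. The strongest, at chrX:1947565-1947936 in the second intron, ranked 159 in the IDR list and 185, 148 and 148 in the replicates. Another, 9967 bp from the TSS, ranked 203 in the IDR list and 224, 197 and 201 in the replicates. The remaining 3 ranked 1357, 1861 and 2540, so all 5 were in the stronger part of the list.

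The members were spread over many genes. They had 688 host genes, of which 358 held 1 member, 280 held 2 to 4 and 50 held 5 or more. A member inside several genes was assigned to 1 of them in that count, whereas the gene counts that follow take every gene a summit lies in. They fell in 909 separate noncoding stretches, a stretch being unbroken intronic DNA that meets no exon of a protein-coding transcript, and no stretch held more than 8.

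Among the 10 genes with the most members, the most per 10 kb were in Raf, which encodes the kinase that carries signals from receptor tyrosine kinases to MEK. Raf held 9 members in the IDR list and 9, 9 and 10 in replicates 3, 4 and 5, on 18986 bp of eligible DNA, or 4.74 members per 10 kb. Of these, 8 lay in 1 noncoding stretch of its second intron. The strongest ranked 101 in the IDR list and 85, 109 and 149 in the replicates, and the next ranked 237, and 194, 287 and 392. Further Raf members ranked 743, 763 and 928, while the weakest ranked 4611, so the gene combines strong and weak summits.

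kirre, which encodes an immunoglobulin adhesion protein of muscle founder cells, held the most members, 12 in the IDR list and 11, 12 and 9 in the replicates. Its eligible DNA is 131470 bp long, so the density was 0.913 per 10 kb. mam, which encodes the Notch coactivator Mastermind, held 9 members in the IDR list and 8, 10 and 9 in the replicates, or 2.57 per 10 kb. mew, which encodes an integrin alpha subunit, held 9 in the IDR list and 9, 10 and 9 in the replicates, or 3.27 per 10 kb.

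Eip75B encodes an ecdysone-induced nuclear receptor, and it was the least even of the 10 genes with the most members, with 9 in the IDR list and 6, 7 and 10 in the replicates. ush encodes a zinc finger cofactor of GATA factors and held 8 in the IDR list and 8, 6 and 7 in the replicates. The strongest ush member ranked 446 in the IDR list and 451, 426 and 463 in the replicates. The others were sick with 10 members, CG1677 and CG43658 with 9 each and CG32264 with 8. The last places were a tie at 8 members, which ush and CG32264 took by their summed signal over shn, Ten-a, Mnt and tkv. Every replicate had 6 or more summits of this class in each of the 10 genes, whereas tkv had 6, 5 and 5.

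**Figure D3:**
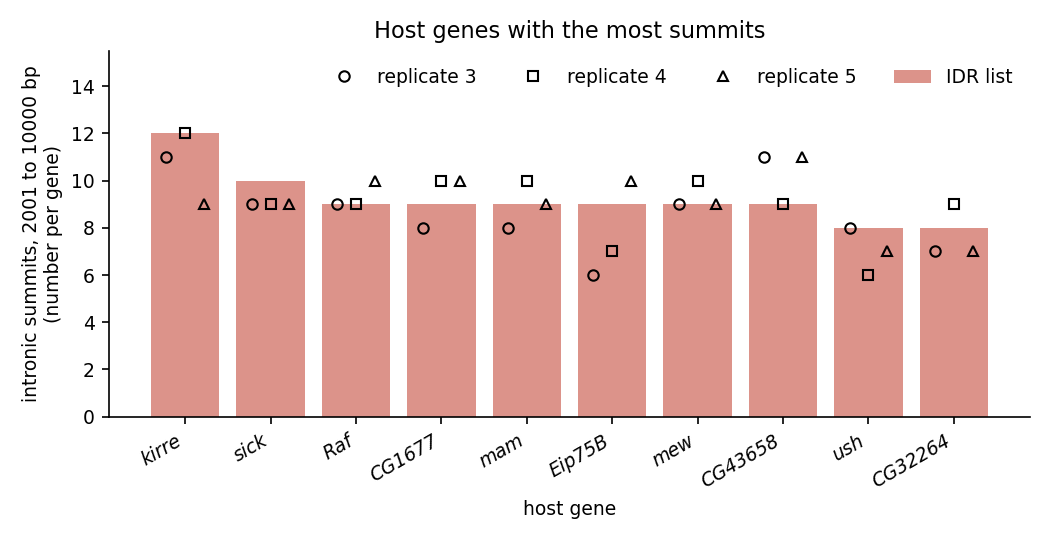
Number of intronic summits 2001 to 10000 bp from a TSS (y axis) in the 10 host genes with the most of them (x axis). Bars are the IDR list and open symbols are replicates 3, 4 and 5. kirre leads with 12 in the IDR list, and the replicates of Eip75B spread from 6 to 10.

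The unpg gene itself held none of these summits. Its eligible DNA is 1939 bp long, and no member fell there in the IDR list or in any of the 3 replicates.

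Genes with more eligible DNA held a member more often. Of the 2436 protein-coding genes with 1000 bp or more of eligible DNA, 696 (28.6%) held at least 1 member. The share was 3.85% of genes with 1 to 2 kb, 28.7% of those with 5 to 10 kb and 59.0% of those with more than 20 kb. Per Mb of eligible DNA the classes from 2 kb upward were close to each other, at 56.5 to 65.6 members per Mb, and the genes with 1 to 2 kb were at 33.9. Gene lists below are therefore given with their density as well as their share of genes, and they were chosen with earlier results of these data known, so no test is given for them.

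Signalling genes were often hosts. In the Dpp list (Dpp is the fly BMP ligand) 7 of 9 genes with eligible DNA held a member, at 199 members per Mb, against 28.6% and 61.0 per Mb over all genes. tkv, which encodes a type I Dpp receptor, held 8 members in the IDR list and 6, 5 and 5 in the replicates. shn, which encodes a zinc finger cofactor of the pathway, held 8 in the IDR list and 10 in each replicate, and sog, which encodes an extracellular BMP antagonist, held 5, and 5, 4 and 4. The ligand gene dpp, named here after its values were seen, held 1 member in every list. The number of genes with a member was 7, 7 and 8 of 9 in replicates 3, 4 and 5.

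In the EGF and FGF receptor list, 12 of 17 genes held a member in the IDR list and 11, 12 and 11 in the replicates, at 166 members per Mb in the IDR list. The 3 with the most were Raf with 9, aop, which encodes an ETS repressor, with 5, and pnt, which encodes the opposing ETS activator, with 4. In the Wingless list 8 of 13 held one in the IDR list and 7 in each replicate, at 155 per Mb. The Wingless receptor genes fz and fz2 held 6 and 5 members, and the ligand gene Wnt4 held 4.

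The Hedgehog and Notch lists were small, and their densities were 174 and 103 members per Mb in the IDR list. In the first, 2 of 4 genes held a member, ptc (the Hedgehog receptor) with 4 in the IDR list and in each replicate, and the ligand gene hh with 1 in the IDR list and 1, 0 and 1 in the replicates. In the second, 3 of 7 did in the IDR list and 2, 2 and 3 in the replicates, and 9 of the 12 members of that list were in mam. The glycosyltransferase gene fng held 2 in the IDR list and 1, 2 and 2 in the replicates. The receptor gene N held 1 in the IDR list and 0, 0 and 1 in the replicates, so it was a host in 1 replicate only.

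Among tracheal genes, the tissue in which unpg is known, 9 of 14 held a member in the IDR list and 11, 9 and 9 in the replicates, at 115 per Mb. The 3 with the most were aop, fz2 and pnt with 5, 5 and 4, all of which other lists hold as well. trh, the regulator that starts tracheal fate, held none in the IDR list and 1, 0 and 0 in the replicates, on 16337 bp of eligible DNA, and is named here after its values were seen. In the ecdysone list 9 of 13 held one in the IDR list and in each replicate, at 101 per Mb, led by Eip75B with 9, Hr4 with 5 and Eip63E with 4. Hr4 had 5 in each replicate as well, whereas Eip63E had 3, 3 and 1.

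Homeodomain genes were close to the background. Of 37 with eligible DNA, 11 (29.7%) held a member, against 28.6% of all genes, and 12, 11 and 9 did in the replicates, with 49.6 members per Mb against 61.0. Awh led with 3 members in each list. A tie at 2 members followed, made up of ct, Antp, Lim1, cad, caup, hth and zfh1, of which ct and cad held 2 in each replicate too. Neuronal genes, which mark differentiated neurons, were the only list below the background share, with 2 of 16 genes in the IDR list and in each replicate, at 15.2 per Mb. These were fne, which encodes an RNA-binding protein of neurons, with 2 members and ChAT, the acetylcholine synthesis gene, with 1.

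Axon guidance and adhesion genes held a member in 14 of 24 cases in the IDR list and in 15, 12 and 13 in the replicates. Their density of 71.6 per Mb was nearer to the 61.0 of all genes than their share was, and these genes are long, with a median of 15.3 kb of eligible DNA against 6.88 kb. kirre held 12, Ten-a, which encodes a teneurin adhesion protein, 8, and fra, which encodes the Netrin receptor, 4. In the muscle list 6 of 13 did in the IDR list and 6, 7 and 5 in the replicates, at 112 per Mb in the IDR list. Counts per gene varied there: rols held 6 in the IDR list but 3, 3 and 4 in the replicates, Mef2 held 5, and 6, 4 and 4, and twi, the mesoderm regulator, held 2, and 3, 1 and 0. In the actin list 9 of 16 did in the IDR list and 8, 10 and 10 in the replicates, at 107 per Mb in the IDR list. Most members there were in ena with 4 (3, 4 and 4 in the replicates), pigs with 3 (4, 2 and 3) and Abl with 3 (1, 3 and 2).

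In the remaining lists few genes could be counted. Of the chromatin genes 4 of 10 held a member, led by trx with 5, of the GATA factors and cofactors 2 of 5, with 8 of the 9 members in ush, and of the glial genes 2 of 5, in pnt and sli. The densities of these lists were 120, 165 and 104 members per Mb, against 61.0 over all genes. Ribosomal protein and chemosensory receptor genes had no gene with 1000 bp of eligible DNA, so nothing can be said of them.

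**Figure D4:**
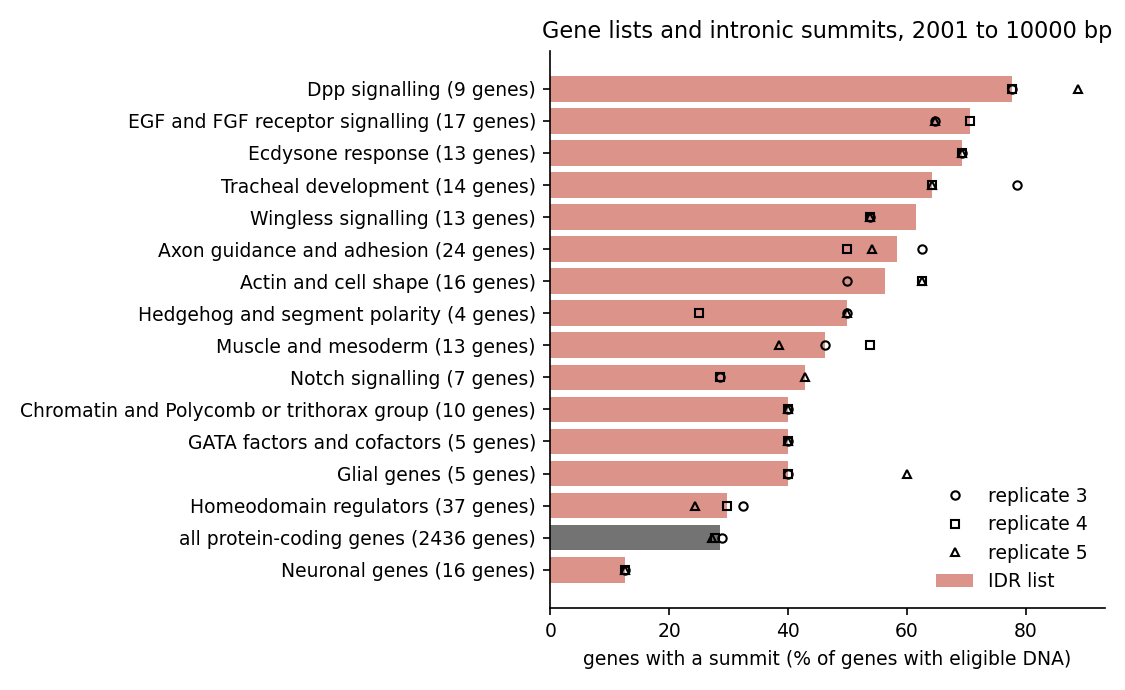
Share of the genes of each list that held a summit of the 2001 to 10000 bp class (x axis, % of genes with 1000 bp or more of eligible DNA), with the number of such genes beside each name. Bars are the IDR list, with all genes in dark grey at 28.6%, and open symbols are replicates 3, 4 and 5. The Dpp list is highest with 7 of 9 genes, and the neuronal list, with 2 of 16, lies below the bar of all genes.

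Genes with a member also had a promoter summit more often. An IDR summit lay within 500 bp of a TSS in 381 of 696 genes with a member (54.7%) and in 443 of 1740 without one (25.5%). In replicates 3, 4 and 5 the shares were 46.4, 60.0 and 58.7% with a member and 26.0, 26.6 and 28.4% without, higher with one in all 3 (exact sign permutation, two-sided p = 0.25, the smallest possible). The genes with a member were also longer, with a median of 11.1 kb of eligible DNA against 4.93 kb, and the part of gene size in this difference was not tested.

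First introns held more of the members than their share of the DNA. A first intron of the longest transcript spanning the summit held 628 of them (45.5%, Wilson interval 42.9 to 48.1), against 34.2% of the eligible DNA, and the share was 45.8, 45.5 and 46.1% in the replicates. The nearest TSS belonged to a host gene for 78.0% of members, against 67.1% of the eligible DNA, and in the replicates this share was 78.1% ± 0.678 (SD, n = 3). The median distance from member to TSS was 4435 bp. In the longest transcript spanning the summit, the median distance to the nearest exon was 3081 bp and the median intron length 13814 bp. Exons of other transcripts, which can lie nearer, were not counted in that distance. A member lay upstream of its nearest TSS in 30.6% of cases, close to the 31.3% of the eligible DNA.

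Transposable elements were nearly free of members. They make up 6.40% of the eligible DNA and held 2 members (0.145%, Wilson interval 0.0397 to 0.527), and 0.147, 0.150 and 0.230% of the summits in replicates 3, 4 and 5. How reads from repeats were handled is not given in the sources used here, so its part in this was not tested. By arm the density was highest on X, at 72.6 members per Mb in the IDR list and 67.2 ± 1.84 (SD, n = 3) in the replicates, and 53.7 to 62.3 per Mb on the other large arms. The small arm 4, with 0.329 Mb of eligible DNA, held no member in the IDR list and 1 summit in replicate 5.

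The DNA at the summits was much richer in A and T than the DNA around it. GC content of the 101 bp centred on the summit averaged 30.7%, against 44.6% in an equally wide flank window whose centre lay 300 bp rightward and 40.1% in windows tiled over the eligible DNA. It was lower than in the flank for 1180 members (85.4%). In replicates 3, 4 and 5 the summit mean was 31.2, 31.0 and 31.7%. The close and the far class had the same dip, at 31.6 and 30.1%, with the members below the close and above the far class in each replicate by less than 1 percentage point on average (exact sign permutation, two-sided p = 0.25 for each). Stronger members had less GC, 28.9% in the strongest 25% of them and 32.4% in the weakest 25%.

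The homeodomain palindrome was more frequent at the summit than beside it. TAATTA, which reads the same on both strands, was within 50 bp of the summit in 183 members (13.3%, Wilson interval 11.6 to 15.1), in 5.21% of flank windows, and in 11.4% of all IDR summit windows. In replicate 3 the shares were 11.7% at the summit and 4.85% in the flank, in replicate 4 11.9 and 5.86%, and in replicate 5 12.2 and 5.82%. The summit was higher in all 3 replicates, with a ratio of 2.18 ± 0.205 (SD, n = 3; exact sign permutation, two-sided p = 0.25, the smallest possible). In the IDR list, windows centred 50 bp away, which overlap the summit window, still held the word in 10.1 and 9.63% of cases. Windows centred 100 bp away held it in 5.79 and 4.92%, near the flank share. Set against other summits, the members' share was close to the background: close and far intronic summits held TAATTA in 10.8 and 11.3% of windows. In replicate 3 the close class was above the members, at 12.1 against 11.7% (exact sign permutation over the 3 replicates, two-sided p = 0.5). Of the 183, 12 had 2 or more copies.

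The same palindrome was not more frequent than in other intronic DNA of the same base composition. It was found in 7.82% of all 101 bp windows of the eligible DNA, and in 13.0% of them when weighted to the GC content of the members' summits. The ratio of members to these weighted windows was 1.02 in the IDR list and 0.924, 0.925 and 0.982 in replicates 3, 4 and 5. Members with TAATTA were lower in GC, at 26.8% against 31.3% for those without. A split on a word made only of A and T builds in part of that difference. Members with the word were also stronger, with a median rank of 3385 against 3860.5. Whether the palindrome in a given member is bound was not tested.

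**Figure D5:**
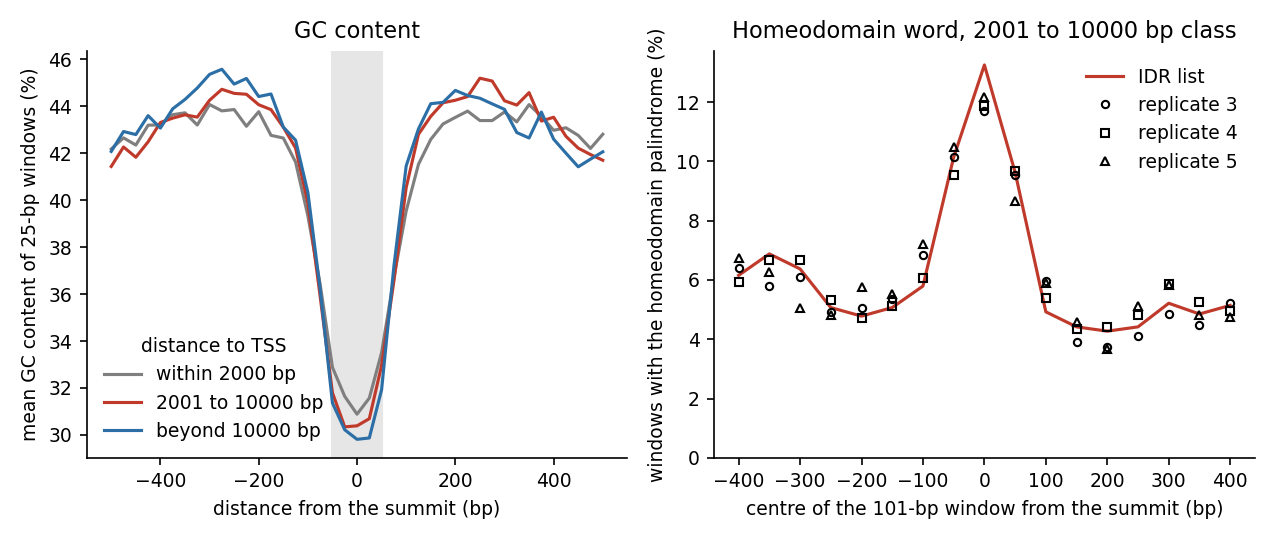
Left, mean GC content of 25-bp windows (y axis, %) by distance from the summit in bp (x axis) for the 3 classes of intronic summits in the IDR list, the grey band marking 50 bp on either side. Right, share of 101-bp windows (y axis, %) with the homeodomain palindrome by distance from the summit (x axis) in the 2001 to 10000 bp class, with the IDR list as a line and the replicates as symbols. GC falls at the summit in all classes, and the palindrome peaks at 13.3% in the IDR list and 11.7 to 12.2% in the replicates.

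Of the other homeodomain words, CAATTA and TTTATG rose less from flank to summit than TAATTA did. CAATTA was in 12.1% of summit and 9.49% of flank windows, and TTTATG, a word of Abd-B and Caudal class proteins, in 15.6 and 11.9%. Against windows of the same GC content both were below 1, at ratios of 0.856 and 0.933 in the IDR list, and they stayed below 1 in each replicate. The composite word TGATTGAT of Exd and Hox proteins was in 15 members (1.09%, Wilson interval 0.659 to 1.78) and in 7 flank windows. It was in 0.543% of all IDR summit windows, 0.515% of close and 0.544% of far intronic summits. Its ratio to windows of the same GC content was 1.33 in the IDR list and 1.35, 1.29 and 1.60 in the replicates, on few summits.

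The GATA word was more frequent in members than in windows of equal GC content. AGATAAG, searched on both strands, was in 34 members (2.46%, Wilson interval 1.77 to 3.42), in 1.01% of flanks and in 1.22% of all eligible windows. It was in 1.78% of all IDR summit windows and in 2.17% of close and 1.63% of far intronic summits. In replicate 4 the close class was not below the members (exact sign permutation, two-sided p = 0.5), so a difference from close summits was not shown. The word's ratio to windows of the same GC content was 1.66 in the IDR list and 1.49, 1.47 and 1.84 in replicates 3, 4 and 5 (exact sign permutation, two-sided p = 0.25, the smallest possible). AATATT was in 343 members (24.8%), in 5.07% of flanks and in 9.61% of all eligible windows. It was in 21.1% of all IDR summit windows, so it is frequent in the whole list as well. Its ratio at equal GC content was 1.36 in the IDR list and 1.37, 1.35 and 1.32 in the replicates. At close summits AATATT was in 19.5% of windows, below the members in each replicate (exact sign permutation, two-sided p = 0.25). At far summits it was in 22.7%, and in replicate 5 the far class was above the members, at 23.2 against 22.9% (exact sign permutation, two-sided p = 0.5).

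Under the 2 backgrounds, flank and equal GC content, E-box words and GAGAGAG gave opposite answers. CAGGTG, an E-box, was in 24 summit and 62 flank windows, and CAGCTG, another E-box, in 30 and 74, so both were rarer at the summit. Members held them in 1.74 and 2.17% of windows, not above the 1.78 and 2.73% of all IDR summit windows. At equal GC content their ratios were 1.17 and 1.25, and each was above 1 in all 3 replicates. GAGAGAG, the repeat bound by GAGA factor, was in 15 summit and 51 flank windows, with a ratio of 1.53 at equal GC content. Its share of members was 1.09%, close to the 1.02% of all IDR summit windows. CAGGTAG, the word of the early activator Zelda, was in 8 members (0.579%), in 5 flank windows and in 0.348% of all IDR summit windows. In replicate 5 its share was 0.536% at the summit and in the flank alike (exact sign permutation against the flank, two-sided p = 0.5). Its ratios at equal GC content were 2.09 in the IDR list and 1.80, 1.59 and 1.81 in the replicates, on few summits.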

How the data were processed

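The deposited files were 5 dm6 peak lists: 1 for each of 3 replicates and 1 for the pooled replicates, each of 30000 peaks, and the IDR list of 7176. Peak calling was done by the authors, per the file descriptions deposited with the lists. Which aligner, peak caller and IDR threshold were used is not given in the sources used here. The signal value is the authors' own score per peak and ranked peaks within a list. The deposited −log10 q-value was not used for ranking. Read counts are not part of the lists, which leaves sequencing depth unknown, and Wilson intervals (95%) cover counting error only.

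Each replicate list was kept to its 7176 strongest peaks by signal. Summits were placed on Ensembl release 115 genes, of which 13945 were protein-coding, and windows of 101 bp were read from the Release 6 reference in Python (3.11.15) using pandas (2.3.3), numpy (2.4.6) and scipy (1.17.1). Figures used matplotlib (3.10.9). Shares of eligible DNA were taken at points 100 bp apart, and windows tiled over it were weighted to the members' GC content in bins of 5 percentage points. Overlap meant 1 bp or more. Spread was taken over the 3 replicates with an exact sign permutation test, two-sided. The scripts were tested on simulated data.

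The members, words and gene lists were chosen with earlier results of these data known. The rule for named genes took the hosts of the 12 strongest members and of the 12 strongest with TAATTA, the 10 genes with the most members, the summits at both ends of the distance range, up to 3 genes of each of 17 lists, and unpg. The annotation lacked 9 symbols of the lists, 4 of which were found through synonyms (as Raf, Notum, Nct and MsrA) and 5 left out. Alternatives varied the TSS definition, peak set, overlap, window, flank and background, and 3 were added after the data were seen (the close class from 501 bp, and members in transposable elements left out of 2 measures).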

Additional observations from a re-analysis of the deposited data

How the results depend on the processing

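Of 91 alternative values, 23 moved by less than 1 replicate SD and 68 by 1 SD or more, and a reversal of direction was not scored. The cause of a move was not tested except where the alternative itself sets it (fewer peaks or more). The density stayed below that of the close class and above that of the far class in every alternative. With 1 TSS per gene there were 1581 members, the density was 72.6 per Mb, its ratio to the close class 0.642 and to the far class 1.75, TAATTA was in 12.3% of members, the median position was 50.5% and first introns held 52.2%. With noncoding TSS counted the density was 57.8 per Mb, TAATTA was in 12.8% and first introns held 44.9%. The strongest 50% of the list gave 646 members, 28.3 per Mb, ratios of 0.407 and 2.52, TAATTA in 14.6%, GC content of 29.7%, 99.5% found in all replicates and 46.3% in first introns. The pooled list, which includes peaks of low support, gave 6817 summits, 299 per Mb, ratios of 0.662 and 1.95, TAATTA in 8.80% with a summit to flank ratio of 1.33, GC content of 37.0%, 14.9% found in all replicates, a median position of 55.2% and 44.4% in first introns. With 1 summit per stretch there were 909 members, 39.9 per Mb, ratios of 0.374 and 2.58, TAATTA in 13.0%, GC content of 30.3%, 72.4% found, a median position of 45.0% and 43.1% in first introns. Leaving the first 500 bp out of the close class gave a ratio of 0.594, an alternative added after seeing the data. With 100 bp on each side TAATTA was in 19.6%, its ratio to the flank was 2.13 and GC content was 33.5%. The ratio was 2.08 with the left flank, 1.69 against all eligible windows and 1.02 against windows of the same GC content. With 50% reciprocal overlap 49.9% of members were found in all replicates, and with whole replicate lists 99.1%. Requiring the peak in both other replicates, leaving each replicate out in turn, gave 1030 to 1074 members, which is 74.6 to 77.8% of all 1381. Their density was 45.2 to 47.1 per Mb, with ratios of 0.453 to 0.462 and 2.23 to 2.33. TAATTA was in 13.5 to 14.4% of them with a ratio of 2.64 to 2.74, and GC content was 30.1 to 30.2%. The median position was 53.2 to 53.7%, and first introns held 45.3 to 46.3%. No paired analysis was possible because all 3 replicates belong to 1 group, so their numbers pair no groups. The sign tests compare classes or windows within each replicate. Without read counts, the limit that depth sets on weak members cannot be given.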

Other observations

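Among 1812 6-letter words compared with eligible windows of the same GC content, ACAGTG had the highest ratio in the members, and it was chosen after its values were seen. It was in 67 members (4.85%), against 2.81% of the weighted windows, a ratio of 1.72. The ratio was 1.95, 1.91 and 1.90 in replicates 3, 4 and 5 (mean 1.92 ± 0.0274, SD, n = 3). For this word and those next in order, shares in all IDR summit windows and in close and far intronic summits are not given. Whether these words set the members apart from other summits was not tested. The next words were AGTATC, in 74 members at a ratio of 1.72, and CAGTGG, in 48 at 1.65. AATATT stood at position 76 of this order, TAATTA at 836 and CAATTA at 1396. The word GGTCACACT, core promoter Motif 1, was in 3 members (0.217%) and in no flank window. It was rarer in the members than in all IDR summit windows, where the share was 0.697%.

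The puc gene, which encodes a phosphatase that limits JNK signalling, held 6 members and is named here after its values were seen. In the IDR list they ranked 993, 1213, 1678, 1780, 5307 and 5798, so 4 of the 6 were in the stronger part of the list. The member at IDR rank 993 of puc ranked 1027, 1008 and 997 in the replicates.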
